A study of Mus musculus with 7 samples.

Results

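The macrophage and monocyte genes of subcutaneous colorectal tumours were examined: 34 named genes, all of which were found among the 47643 gene rows of the deposited table. The list was drawn up by name, with earlier results of these data known, and was divided by role into core macrophage genes (9), genes shared by most myeloid cells (6), the C1q chains (3), resident-like genes (5), lipid-associated genes (4), scavenger receptors with arginase (3) and classical monocyte genes (4). Tumours were grown from cells called MTOs in the labels, of the genotype sgPrkci/Prkcz, in which guides target both atypical protein kinase C genes. Both groups carry that genotype. The cells were injected with 30% Matrigel under the skin of the flank of C57BL/6 mice aged 7 weeks, and the mice were 13 weeks old at collection. The treated group received PEGPH20 (0.0375 mg/kg), a pegylated hyaluronidase that degrades the matrix polysaccharide hyaluronan, from day 15 on, 2 times a week for 3 weeks; the control group received vehicle on the same schedule. There were 4 PEGPH20 tumours (replicates 11, 12, 19 and 37) and 3 vehicle tumours (replicates 14, 16 and 33), with 1 library each from whole tumour RNA. The labels do not say whether replicate numbers mark separate mice, so p-values measure the spread between these tumours.

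Tumour macrophages arise largely from blood monocytes that carry the chemokine receptor CCR2 and the surface protein Ly6C, and they mature under signals through the receptor for colony-stimulating factor 1. Mature cells take up dying cells, matrix fragments and lipids. Some express a programme shared with tissue-resident macrophages (mannose receptor, CD163, folate receptor beta), others a lipid-associated programme around the receptor TREM2, and both kinds make the complement component C1q. Fragments and intact chains of hyaluronan are bound and cleared in part by macrophages.

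The libraries held 4582238 to 6703775 recovered reads with PEGPH20 and 4204388 to 4304108 with vehicle. Values are normalised read counts, which are reads divided by 1 size factor per library, from the 3′ end of transcripts. All 9 core macrophage genes were detected in all 7 libraries, so transcripts of these defining markers were present. Detection does not show which cells made the other listed genes. Marco, a scavenger receptor, had at most 1 read in any library and was not tested. Other cells differed between the libraries too. Summed skeletal muscle markers (15 genes) ranged from 79.5 to 3312 normalised read counts with PEGPH20 and from 216 to 14639.9 with vehicle, with the highest sum in vehicle replicate 16. Summed fibroblast markers (16 genes) ranged from 8707 to 22358 with PEGPH20 and from 18272 to 46104 with vehicle. In RNA from whole tumours, fewer cells of a type and less RNA per cell cannot be told apart.

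No listed gene passed the test between PEGPH20 and vehicle. The 33 genes whose values averaged 1 or more were tested, and limma called 0 at an adjusted p under 0.05 (Benjamini-Hochberg over all 17132 genes tested, of which 0% were called). An unadjusted p under 0.05 was reached by 2 of the 33, Gpnmb and Itgam, against 12.2% of all genes tested. The edgeR test on recovered reads also called 0 listed genes (0% of its 13079 genes) with the same 2 at an unadjusted p under 0.05. DESeq2 gave an adjusted p to 26 of the 34 and called 0 of these (0.935% of all genes it adjusted). The other 8, Gpnmb among them, got none and could not be called. Unadjusted DESeq2 p-values under 0.05 were found for Gpnmb, Itgam, Pf4 and Arg1. Estimates were above 0 for 12 listed genes and below 0 for 21, with a median log2 difference of -0.04, beside a median of 0.03 over all genes tested. Values of the groups did not overlap for 1 gene that was higher with PEGPH20 (Gpnmb; 6.72% of all genes tested) and 1 that was lower (Itgam; 4.45%). These counts are no larger than the background shares. For 27 of the 33 genes the difference between the group means was smaller than 1 pooled SD of the libraries, which held for 62.1% of all genes tested.

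**Figure D1:**
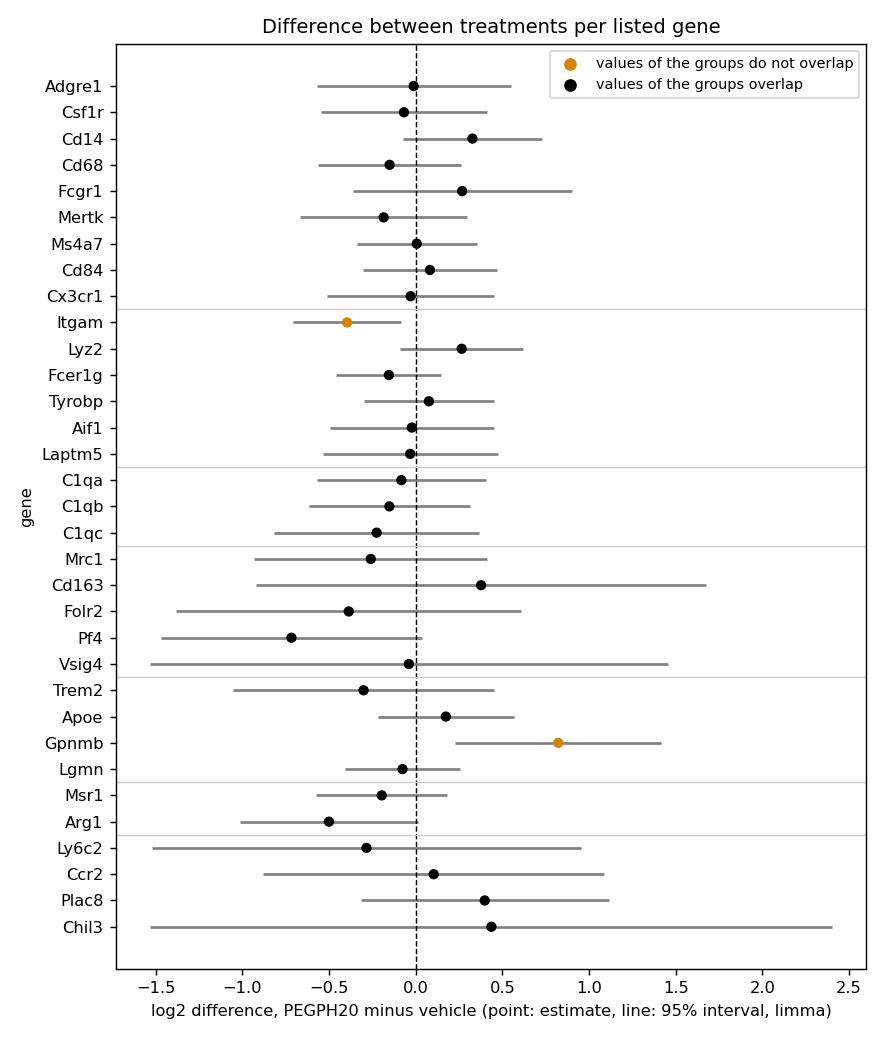
Log2 difference between PEGPH20 and vehicle for the 33 tested genes, ordered by role; points are limma estimates, lines are 95% intervals and orange points mark genes whose 2 groups of values do not overlap. The lines of Gpnmb (0.23 to 1.42) and Itgam (-0.71 to -0.09) stay on one side of 0, and the other 31 lines cross it.

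The spread was mostly among the vehicle tumours. Vehicle replicate 16 had the highest value of all 7 libraries for 20 of the 33 genes, where it was the highest for 19.5% of all genes tested. Vehicle replicate 14 had the lowest value for 22 of the 33, where it was the lowest for 18.0% of all genes. Replicate 16 exceeded replicate 14 in 29 of the 33 genes, with a median log2 difference of 0.86 between these tumours, beside 0.07 over all genes tested. For 20 of the 33 genes all 4 PEGPH20 values lay inside the range of the 3 vehicle values, which held for 18.6% of all genes. The summed value of the 34 genes was 11476, 14265, 11292 and 11850.1 normalised read counts in PEGPH20 replicates 11, 12, 19 and 37, and 9791, 15047 and 12326 in vehicle replicates 14, 16 and 33. In these sums the PEGPH20 tumours sat between the lowest and the highest vehicle tumour. Abundant genes weigh most in the sums: Apoe, Lyz2 and Arg1 held 3148, 1819 and 949.6 of the 11476 in PEGPH20 replicate 11. In vehicle replicate 14 they held 2569, 1095 and 1591 of the 9791.

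**Figure D2:**
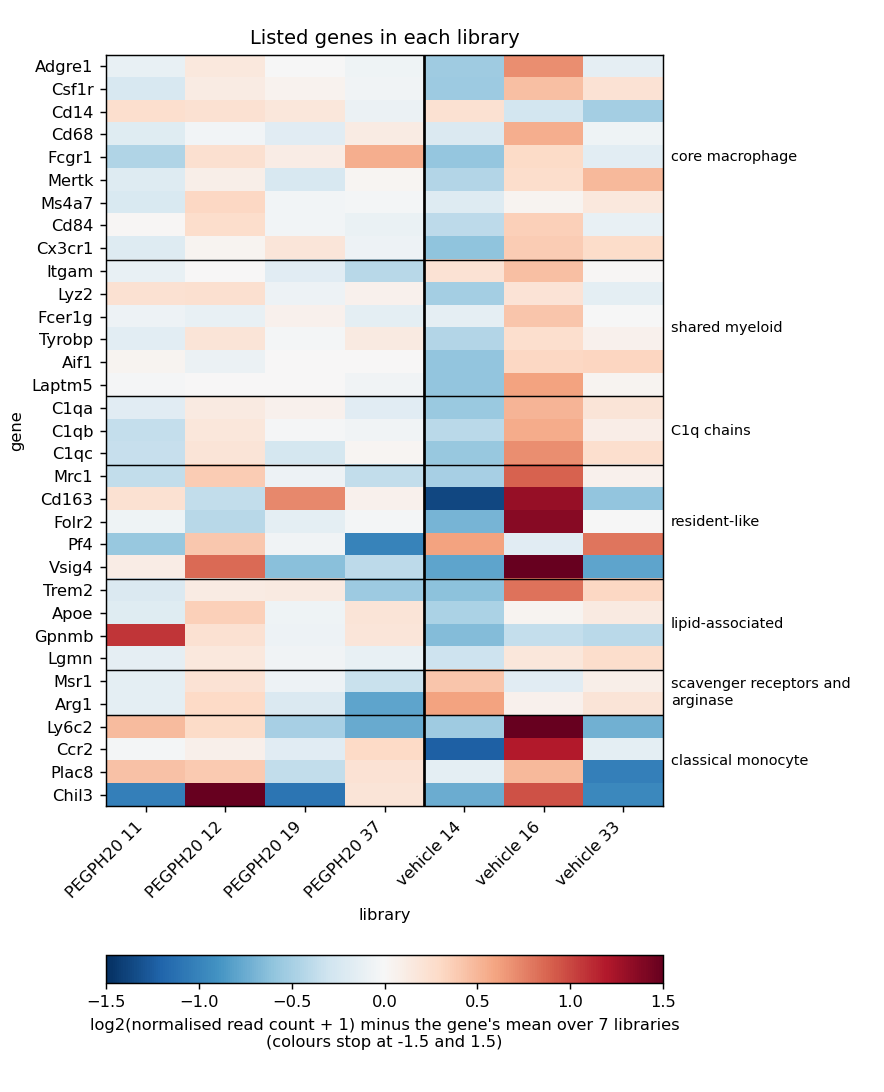
Each row is a listed gene and each column a library, PEGPH20 left of the black line and vehicle right of it; colour is log2(normalised read count + 1) minus the gene's mean over the 7 libraries. The column of vehicle replicate 16 is high in most rows (highest in 20 of 33) and that of vehicle replicate 14 low (lowest in 22 of 33), while Arg1, Msr1, Pf4 and Cd14 do not follow them.

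For most listed genes, the direction of the estimate depended on which vehicle tumour entered the fit. This follows from the order of the vehicle tumours given above and is no separate result. Without vehicle replicate 16, 27 of the 33 estimates were above 0 and 6 below, with a median log2 difference of 0.15. Without vehicle replicate 14, 6 were above 0 and 27 below, with a median of -0.33. Over all genes tested, the median was 0.06 without vehicle replicate 16 and 0.01 without vehicle replicate 14. Leaving out any other library gave 11 to 16 estimates above 0. Without PEGPH20 replicates 11 and 37 and vehicle replicate 16, the 3 libraries richest in muscle transcripts, 28 were above 0 and 5 below, with a median of 0.28. No listed gene was called in any of these fits. The part of muscle or of other admixed tissue in the values of vehicle replicate 16 was not tested. Pan-leukocyte markers moved the same way, with a list level (mean log2 value of its 10 genes) of 7.29, 7.26, 7.06 and 7.09 with PEGPH20 and 6.84, 7.62 and 7.21 with vehicle. With this level subtracted from every gene, 17 estimates were above 0 and 16 below. The subtraction shifts the estimate of every gene by the same amount, and the median over all genes tested became 0.08.

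**Figure D3:**
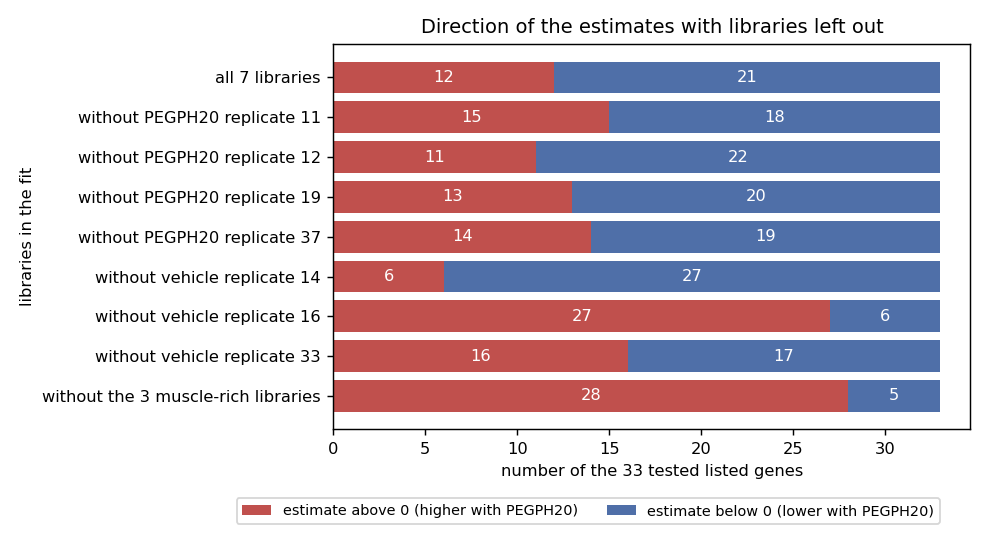
Number of the 33 tested genes whose estimate was above 0 (red) or below 0 (blue) when libraries were left out of the limma fit. The bars for fits without vehicle replicate 16 (27 and 6) and without vehicle replicate 14 (6 and 27) point in opposite directions.

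The sequence before the start is shown for 5 chosen genes, none of which was called. They are Gpnmb and Itgam, whose groups did not overlap, C1qb and C1qc, adjacent chain genes whose values moved together, and the monocyte gene Ly6c2, which varied widely among the vehicle tumours. Each is the 250 bases before the RefSeq start (GRCm38.p6), 5′ to 3′ on the gene's strand. The windows are chr6:49036268-49036517 (plus strand) for Gpnmb, chr7:128062390-128062639 (plus) for Itgam, chr4:136886201-136886450 (minus) for C1qb, chr4:136892915-136893164 (minus) for C1qc and chr15:75111972-75112221 (minus) for Ly6c2. The GENCODE annotation starts C1qc at 136893065, inside its window, so part of that window lies within the gene as annotated there. Capitals mark GAGGAA or its reverse complement TTCCTC, the core that the myeloid transcription factor PU.1 binds.
Gpnmb: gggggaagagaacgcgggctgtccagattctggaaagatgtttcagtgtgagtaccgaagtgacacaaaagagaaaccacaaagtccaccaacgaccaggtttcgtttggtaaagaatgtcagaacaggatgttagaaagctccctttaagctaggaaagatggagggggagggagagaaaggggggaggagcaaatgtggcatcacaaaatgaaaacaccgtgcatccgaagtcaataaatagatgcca
Itgam: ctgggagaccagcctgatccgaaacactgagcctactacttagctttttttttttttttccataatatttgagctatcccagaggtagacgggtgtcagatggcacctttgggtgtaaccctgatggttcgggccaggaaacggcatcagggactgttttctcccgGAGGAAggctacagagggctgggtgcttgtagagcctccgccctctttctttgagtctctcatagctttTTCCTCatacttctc
C1qb: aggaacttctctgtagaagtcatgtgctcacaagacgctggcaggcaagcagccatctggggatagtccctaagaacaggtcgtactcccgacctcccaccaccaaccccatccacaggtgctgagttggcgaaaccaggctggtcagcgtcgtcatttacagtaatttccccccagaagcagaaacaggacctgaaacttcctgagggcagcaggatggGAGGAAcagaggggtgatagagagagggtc
C1qc: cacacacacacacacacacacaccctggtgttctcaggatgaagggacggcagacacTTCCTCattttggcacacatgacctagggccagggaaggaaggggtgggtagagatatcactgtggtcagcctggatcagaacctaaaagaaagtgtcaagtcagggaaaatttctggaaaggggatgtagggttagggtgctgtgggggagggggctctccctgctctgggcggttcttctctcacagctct
Ly6c2: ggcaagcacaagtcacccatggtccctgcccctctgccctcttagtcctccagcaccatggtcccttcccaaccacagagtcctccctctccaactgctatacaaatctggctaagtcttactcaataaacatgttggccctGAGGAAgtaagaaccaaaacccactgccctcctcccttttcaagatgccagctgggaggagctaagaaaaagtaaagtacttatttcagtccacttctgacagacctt
The core occurred 2 times in the Itgam window, 1 time each in those of C1qb, C1qc and Ly6c2, and 0 times in that of Gpnmb. Among the 27 listed genes with a RefSeq promoter entry, 15 held it on either strand, beside 23.1% of 27025 promoter windows of the same length. The E-box CATGTG was found in 3 of the 27 (12.2% of all windows), C1qb, C1qc and Mrc1, the palindromic E-box CACGTG in 0 (6.05%) and the AP-1 motif TGANTCA in 3 (6.87%), Trem2, Cd68 and Cd84. A match is a string of letters, not an occupied site. Spi1, which encodes PU.1, read 52.2, 53.7, 48.1 and 62.7 with PEGPH20, and 41.0, 85.5 and 55.5 with vehicle. Its values overlapped, and vehicle replicates 16 and 14 were its highest and lowest library.

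Core macrophage genes did not separate the groups. Adgre1, which encodes the mouse macrophage marker F4/80, read 92.8, 112, 100.0 and 96.3 in PEGPH20 replicates 11, 12, 19 and 37, and 68.9, 164 and 91.1 in vehicle replicates 14, 16 and 33. The PEGPH20 values fell within the vehicle range (log2 difference -0.01 ± 0.25 SE, limma adjusted p = 0.989). Csf1r, the receptor for CSF1 and IL-34, read 179.8, 232, 219.8 and 205 with PEGPH20, and 145, 291 and 246 with vehicle (-0.07 ± 0.21, limma adjusted p = 0.921). An exon of Hmgxb3 overlaps Csf1r on the other strand, and no source says whether reads were counted by strand, which leaves Csf1r uncertain. Fcgr1, the high-affinity Fc receptor for IgG, read 24.0, 39.3, 35.9 and 48.9 with PEGPH20, and 21.8, 40.4 and 29.5 with vehicle (0.27 ± 0.28, limma adjusted p = 0.718). PEGPH20 replicate 37 was the highest and vehicle replicate 14 the lowest library.

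Cd14, the co-receptor for bacterial lipopolysaccharide, had another order of libraries. It read 147, 144, 138 and 116 with PEGPH20, and 145, 101 and 85.9 with vehicle. Vehicle replicate 14, lowest for most listed genes, was here within the PEGPH20 values (0.33 ± 0.18, limma adjusted p = 0.483). The other 5 core genes had log2 differences between -0.19 and 0.08: Cd68, a lysosomal glycoprotein, Mertk, a receptor for dying cells, Ms4a7, a membrane protein of macrophages, Cd84, a SLAM-family adhesion receptor, and Cx3cr1, the fractalkine receptor. Mertk averaged 76.7 ± 8.90 with PEGPH20 and 90.1 ± 27.9 with vehicle, and Cx3cr1 averaged 337 ± 37.3 with PEGPH20 and 357 ± 117 with vehicle (SD, n = 4 and 3). Cd68 averaged 103 ± 10.4 with PEGPH20 and 117 ± 34.6 with vehicle. For Ms4a7 the averages were 103 ± 16.8 with PEGPH20 and 102 ± 12.5 with vehicle, and for Cd84 245 ± 28.7 with PEGPH20 and 235 ± 63.4 with vehicle. All but Ms4a7 had the larger SD with vehicle. The antisense model Gm33858 overlaps an exon of Cx3cr1, whose value is uncertain for the same reason as that of Csf1r.

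The genes shared by most myeloid cells held the 1 listed gene with wholly lower values under PEGPH20. Itgam (chromosome 7, 128062640 to 128118491) encodes CD11b, the alpha chain of an integrin that is a complement receptor. It read 179, 194, 172 and 144 with PEGPH20, and 224, 264 and 195 with vehicle. The highest PEGPH20 library and the lowest vehicle library lay next to each other (log2 difference -0.40 ± 0.14, limma adjusted p = 0.355, lower in 4 of 4 libraries than every vehicle library). Without vehicle replicate 16 the difference was -0.29 and without the 3 muscle-rich libraries -0.19. The gene model Gm49368 shares exons with Itgam on the same strand and held 22.8% of the 75-base words at its transcript ends, and it was listed at 0 to 1.38, which leaves the Itgam value uncertain. Neutrophils also express Itgam. Their markers (16 genes, 13 tested) summed to 1126, 836, 1065 and 761 with PEGPH20, and to 2388, 971 and 893 with vehicle; Camp and Ngp, made by immature neutrophils, were at 0 in all PEGPH20 libraries and at most 1.74 with vehicle. The part of neutrophils in the Itgam values was not tested.

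Lyz2, a lysozyme of macrophages and granulocytes, read 1819, 1842, 1473 and 1623 with PEGPH20, and 1095, 1787 and 1401 with vehicle. Its groups overlapped (0.27 ± 0.16, limma adjusted p = 0.518). It shares 9.20% of the 75-base words at its transcript ends with Lyz1, which read 2.49 to 8.27 with PEGPH20 and 0.868 to 11.03 with vehicle, and is uncertain to that extent. The adaptors Fcer1g and Tyrobp carry the activating signal of many Fc and TREM receptors. Fcer1g averaged 289 ± 18.1 with PEGPH20 and 326 ± 68.7 with vehicle, and Tyrobp 209 ± 23.0 with PEGPH20 and 201 ± 47.7 with vehicle. Aif1, the actin-binding protein IBA1, averaged 117 ± 4.58 with PEGPH20 and 123 ± 39.7 with vehicle, and Laptm5, a lysosomal protein of leukocytes, 292 ± 5.36 with PEGPH20 and 316 ± 127 with vehicle. Laptm5 read 291, 295, 297 and 285 with PEGPH20, but 195, 448 and 303 with vehicle, so that its 4 PEGPH20 tumours were nearly equal while vehicle replicates 14 and 16 differed more than 2-fold.

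The C1q chains moved together across the tumours. C1qa, C1qb and C1qc, which assemble into the recognition unit of classical complement, lie side by side on chromosome 4 (136880129 to 136898803). C1qa read 438, 543, 515 and 436 with PEGPH20, and 334, 701 and 564 with vehicle (log2 difference -0.08 ± 0.22, limma adjusted p = 0.904). C1qb read 444, 641, 564 and 548 with PEGPH20, and 432, 842 and 611 with vehicle. C1qc read 221, 322, 234 and 288 with PEGPH20, and 189, 459 and 337 with vehicle. All 3 genes were highest in vehicle replicate 16 and lowest in vehicle replicate 14, with PEGPH20 replicate 12 the highest of the treated tumours in each. Their level relative to the core macrophage genes (mean log2 level of the chains minus that of the 9 core genes) was 1.65, 1.81, 1.73 and 1.70 with PEGPH20, and 1.65, 2.09 and 1.97 with vehicle.

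Resident-like genes had values under PEGPH20 that mostly lay inside a wide vehicle range. Mrc1, the mannose receptor CD206, read 188, 318, 230.3 and 188 with PEGPH20, and 172, 450.3 and 255 with vehicle (log2 difference -0.26 ± 0.30, limma adjusted p = 0.747). Cd163, the receptor for haemoglobin-haptoglobin, read 9.94, 6.20, 14.4 and 8.76 with PEGPH20, and 2.62, 22.1 and 5.21 with vehicle (0.38 ± 0.58, limma adjusted p = 0.818). Folr2, folate receptor beta, read 9.94, 7.58, 9.39 and 10.2 with PEGPH20, and 6.10, 28.5 and 10.4 with vehicle (-0.39 ± 0.44, limma adjusted p = 0.746); the antisense model Gm10602 overlaps its exons and it is uncertain. In each of these genes vehicle replicate 16 was the highest and vehicle replicate 14 the lowest library, and the PEGPH20 tumours lay between them. Vsig4, a complement receptor of resident macrophages, read 1.10 to 4.82 with PEGPH20, and 0.872, 9.19 and 0.868 with vehicle. Lyve1, a hyaluronan receptor of lymphatic vessels and of some resident macrophages, is no member of the list and read 41.4, 12.4, 17.1 and 21.2 with PEGPH20, and 13.1, 33.1 and 8.68 with vehicle.

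Pf4, platelet factor 4, a chemokine of platelets and of some resident macrophages, ordered the tumours differently. It read 65.5, 129.5, 93.9 and 48.2 with PEGPH20, and 149, 86.4 and 171 with vehicle (-0.72 ± 0.34, limma adjusted p = 0.431). The groups overlapped, and vehicle replicate 16 was the lowest of its group. The platelet gene Ppbp read 56.2 to 87.8 with PEGPH20 and 59.7 to 104 with vehicle. The whole platelet list (11 genes including Pf4, 6 tested) summed to 118 to 214 with PEGPH20 and to 166 to 274 with vehicle; Gp1ba and Gp6 were at 0 in all libraries but PEGPH20 replicate 11. The part of platelets in the Pf4 values was not tested. The median log2 difference of the 5 resident-like genes was -0.26. It was 0.18 without vehicle replicate 16 and -0.53 in edgeR, which did not test Vsig4. In DESeq2 it was -0.57, the estimate of Vsig4 itself, which had 1 to 10 reads per library.

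Lipid-associated genes held the 1 listed gene with wholly higher values under PEGPH20. Gpnmb, a transmembrane glycoprotein of lipid-laden macrophages that some other cells also make (chromosome 6, 49036546 to 49070929), read 88.7, 48.9, 39.2 and 47.4 with PEGPH20, and 26.2, 32.2 and 31.2 with vehicle. All 4 PEGPH20 libraries exceeded all 3 vehicle libraries, and PEGPH20 replicate 11 stood well above the rest of its group. The log2 difference was 0.82 ± 0.26 SE (95% interval 0.23 to 1.42) and did not pass (limma adjusted p = 0.341). Leaving out 1 library at a time gave 0.58, without PEGPH20 replicate 11, to 0.97. The difference was 0.87 relative to the pan-leukocyte level, a subtraction that shifts every gene alike. Mitf, a transcription factor of pigment cells, osteoclasts and macrophages, read 23.2, 31.7, 23.8 and 11.7 with PEGPH20, and 40.1, 26.7 and 53.8 with vehicle. Its groups overlapped.

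Trem2, the lipid receptor that defines these cells, did not follow Gpnmb. It read 23.2, 29.6, 29.8 and 18.2 with PEGPH20, and 17.4, 48.7 and 33.8 with vehicle (-0.30 ± 0.34, limma adjusted p = 0.739). Apoe, the main apolipoprotein of macrophages, which other cells also make, read 3148, 4575, 3406 and 4076 with PEGPH20, and 2569, 3676 and 3925 with vehicle (0.17 ± 0.17, limma adjusted p = 0.702). Lgmn, a lysosomal asparaginyl protease, averaged 273 ± 26.5 with PEGPH20 and 292 ± 58.8 with vehicle. Trem2, Apoe and Lgmn overlapped between the groups, and all 3, like Gpnmb, had their lowest vehicle value in replicate 14. The 4 genes had a median log2 difference of 0.05.

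**Figure D4:**
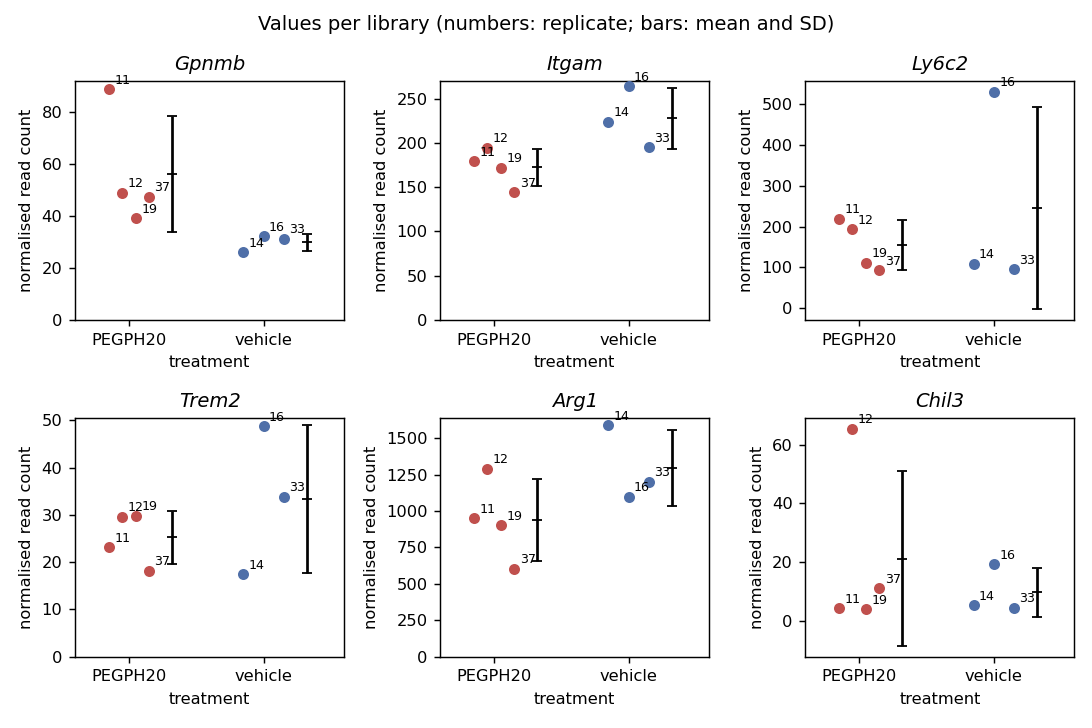
Normalised read counts of 6 listed genes in each tumour; numbers give the replicate, and bars at the right of each group the mean and SD (n = 4 PEGPH20, n = 3 vehicle). Gpnmb is higher in all PEGPH20 tumours and Itgam lower, while Ly6c2 and Trem2 peak in vehicle replicate 16, Arg1 in vehicle replicate 14 and Chil3 in PEGPH20 replicate 12.

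The scavenger receptor gene Msr1 and the arginase gene Arg1 did not have the common order of vehicle tumours. Arg1, an arginine-degrading enzyme that suppressive tumour macrophages can make, read 949.6, 1289.8, 903 and 604 with PEGPH20, and 1591, 1097 and 1199.9 with vehicle. Only PEGPH20 replicate 12 reached the vehicle values (-0.50 ± 0.23, limma adjusted p = 0.421). Msr1, scavenger receptor A, read 159.9, 207, 168 and 141 with PEGPH20, and 237, 157 and 189 with vehicle (-0.20 ± 0.17, limma adjusted p = 0.642). Both were highest in vehicle replicate 14 and lowest in PEGPH20 replicate 37. Summed neutrophil markers had the same highest and lowest libraries (2388 and 761 normalised read counts). The part of neutrophils in the Arg1 and Msr1 values was not tested.

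Classical monocyte genes varied more within groups than between them. Ly6c2, the monocyte surface protein Ly6C, read 219.6, 193, 112 and 93.4 with PEGPH20, and 109, 529 and 95.4 with vehicle (-0.28 ± 0.55, limma adjusted p = 0.860). Ccr2, the receptor for the monocyte chemokine CCL2, read 312, 336, 283 and 390.3 with PEGPH20, and 136, 726 and 288 with vehicle (0.10 ± 0.44, limma adjusted p = 0.945). In both genes vehicle replicate 16 exceeded every other tumour. Plac8, abundant in monocytes and granulocytes, read 829, 802, 472 and 707 with PEGPH20, and 550.1, 857 and 299 with vehicle (0.40 ± 0.32, limma adjusted p = 0.620). Ly6c2 shares 21.8% of the 75-base words at its transcript ends with Ly6c1, a gene of endothelial cells that read 1799.7 to 2298 with PEGPH20 and 1534 to 2003 with vehicle, so its value is uncertain.

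Chil3, the secreted lectin Ym1, read 4.14, 65.5, 3.87 and 10.9 with PEGPH20, and 5.23, 19.3 and 4.34 with vehicle. A single treated tumour, PEGPH20 replicate 12, carried the high group mean (0.44 ± 0.88, limma adjusted p = 0.865), and without it the difference was -0.39. Chil4, which shares 75-base words with Chil3, was at 0 in all 7 libraries. The median log2 difference of the 4 monocyte genes was 0.25. It was 0.74 without vehicle replicate 16, -0.14 without vehicle replicate 14, -0.15 without PEGPH20 replicate 12 and 0.03 in edgeR.

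The roles were also set against the core macrophage genes of the same tumour. Relative to the core macrophage level, the monocyte genes stood at 0.18 ± 0.51 log2 units with PEGPH20 and 0.04 ± 0.78 with vehicle (SD, n = 4 and 3). The resident-like genes stood at -2.45 ± 0.19 with PEGPH20 and -2.22 ± 0.49 with vehicle, and the lipid-associated genes at 0.64 ± 0.17 with PEGPH20 and 0.52 ± 0.12 with vehicle. These 3 differences, 0.14, -0.23 and 0.13, were each smaller than the SD of at least 1 of the groups. Without vehicle replicate 16 they were 0.57 for the monocyte genes, 0.05 for the resident-like genes and 0.10 for the lipid-associated genes. They are descriptions, with no test, since the genes were chosen with earlier results known. Relative to the core genes, the monocyte genes ranged from -0.42 in replicate 19 to 0.82 in replicate 12 with PEGPH20, and from -0.61 in replicate 33 to 0.91 in replicate 16 with vehicle. The resident-like genes ranged from -2.73 to -2.34 with PEGPH20, and stood at -2.54, -1.65 and -2.47 in vehicle replicates 14, 16 and 33, so that replicate 16 lay above all other libraries.

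**Figure D5:**
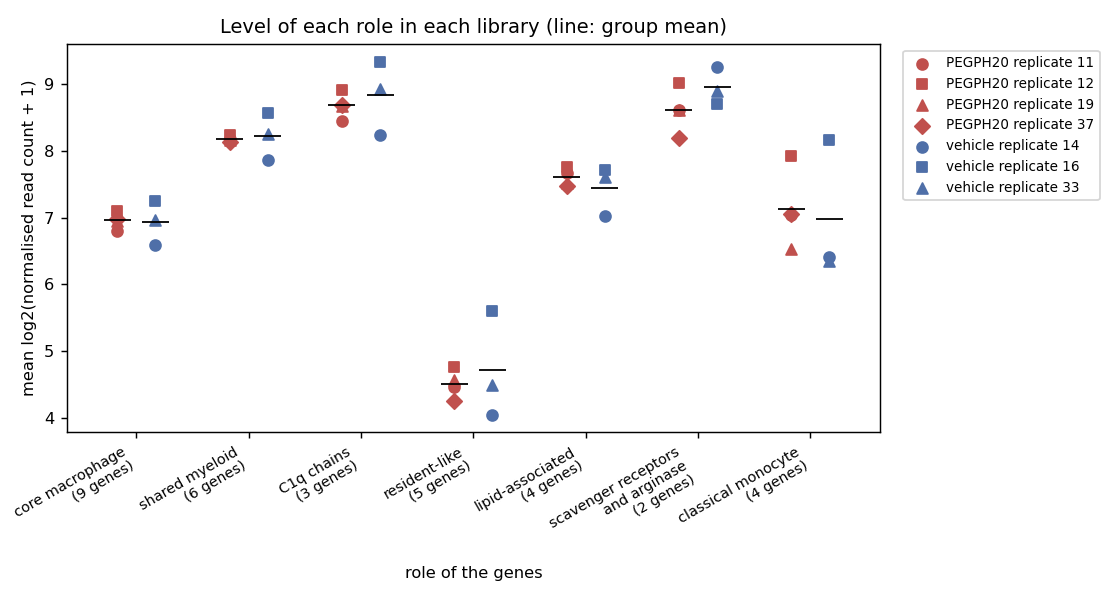
Mean log2(normalised read count + 1) of the genes of each role in each tumour, PEGPH20 (red) left of vehicle (blue); shapes mark replicates and lines group means. The vehicle points span more than the PEGPH20 points in 6 of the 7 roles, the exception being the scavenger receptors and arginase; a level cannot be compared between roles, which hold different genes.

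Genes around the listed ones were examined by role, and limma called 0 of them in every list below. A list of 14 genes held the CSF1 receptor ligands Csf1 and Il34, chemokines, and the cytokines or growth factors Csf2, Mif and Vegfa. Of the 14, 3 estimates were above 0 and 11 below, with a median log2 difference of -0.13. Csf1, the main macrophage growth factor, read 104, 73.7, 96.1 and 108 with PEGPH20, and 104, 132 and 102 with vehicle (-0.24 ± 0.16, limma adjusted p = 0.561). Il34, the alternative ligand, read 33.97 to 42.7 with PEGPH20 and 23.9 to 59.3 with vehicle, and antisense models overlap its exons. Ccl2, which draws in CCR2-bearing monocytes, read 33.1, 39.3, 36.5 and 43.0 with PEGPH20, and 27.9, 68.0 and 33.8 with vehicle, the same vehicle order as Ccr2. Csf2, which encodes GM-CSF, read 0.83, 2.07, 6.08 and 4.38 with PEGPH20, and 15.7, 6.43 and 10.4 with vehicle, without overlap (-1.55 ± 0.52, limma adjusted p = 0.347). Mif, a cytokine, differed by 0.37 ± 0.11 (limma adjusted p = 0.325). Csf2 rests on few reads: 1 read counts as 0.552 in PEGPH20 replicate 19 and 0.919 in vehicle replicate 16. The gap between 6.08 and 6.43 in these libraries was thus below 1 read. Both genes are uncertain, Csf2 also for an antisense model across its exons and Mif for pseudogenes that share 37.7% of its end words.

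Of 14 macrophage transcription factors, 5 estimates were above 0 and 9 below (median -0.12). Maf, a transcription factor of mature macrophages, read 297, 449, 368 and 234 with PEGPH20, and 474, 516 and 626 with vehicle, without overlap (-0.71 ± 0.20, limma adjusted p = 0.313); an antisense model overlaps its exons. Of 21 lipid-handling and lysosomal genes, 5 were above 0 and 16 below (median -0.12). Psap, the precursor of sphingolipid activators, read 789, 963, 838 and 881 with PEGPH20, and 1103, 1211 and 956 with vehicle (-0.33 ± 0.11, limma adjusted p = 0.345). Fabp5, a fatty acid carrier, differed by -0.70 ± 0.30 and was highest in vehicle replicate 14 (101). Spp1, osteopontin, read 3533 to 4244 with PEGPH20 and 3269.9 to 5190.5 with vehicle, and a gene model on the same strand shares its exons. None of these genes is made by macrophages alone.

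Phagocytic receptors and their bridging ligands (16 genes, 15 tested) had 5 estimates above 0 and 10 below, with a median of -0.12. Pros1, protein S, a ligand that bridges dying cells to MERTK, read 72.1, 121, 107 and 67.1 with PEGPH20, and 166, 149 and 200.4 with vehicle, without overlap (-0.93 ± 0.22, limma adjusted p = 0.279). Clec7a, the beta-glucan receptor dectin-1, read 562, 814, 615 and 439 with PEGPH20, and 343, 528 and 307 with vehicle (0.63 ± 0.23, limma adjusted p = 0.357). Complement genes other than C1q (12) had 5 above 0 and 7 below, with a median of -0.12. Among them, 2 were wholly higher with PEGPH20 (6.72% of all genes tested) and 2 wholly lower (4.45%). An unadjusted limma p under 0.05 was reached by 2 of the 12 in each direction (12.2% of all genes tested, both directions together). The 2 wholly higher ones were C4b and Cfb, given here because they had the smallest p of the list. C4b read 113, 107, 68.5 and 97.0 with PEGPH20, and 45.3, 65.3 and 34.7 with vehicle (1.00 ± 0.24, limma adjusted p = 0.302). Cfb, factor B, read 194, 143, 119.9 and 119.7 with PEGPH20, and 54.9, 114 and 53.8 with vehicle (1.01 ± 0.28, limma adjusted p = 0.313). Neither overlapped between groups, in contrast to the C1q chains, but C4b shares 16.8% of its end words with C4a and Cfb 64.0% with a read-through model, so both are uncertain.

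Activation genes (16, both alternative and inflammatory) had 8 estimates above 0 and 8 below, with a median of 0.04. Cxcl9, an interferon-gamma-induced chemokine, read 570.1, 350.0, 266 and 204 with PEGPH20, and 227, 257 and 193 with vehicle (0.52 ± 0.29, limma adjusted p = 0.493). Il4ra, the interleukin 4 receptor chain, differed by -0.34 ± 0.17 (limma adjusted p = 0.446), and an antisense model overlaps its exons. Receptors and kinases that work with the Fcer1g and Tyrobp adaptors (16 genes, 15 tested) had 7 above 0 and 8 below, with a median of -0.01; Plcg2, a phospholipase below these receptors, and Treml1, a platelet receptor, had the smallest p in that list and differed by -0.23 ± 0.13 and 0.74 ± 0.54. Ptprc, which encodes the leukocyte antigen CD45, read 299, 293, 259 and 270.0 with PEGPH20, and 204, 399.8 and 246 with vehicle, again with vehicle replicates 14 and 16 at the ends. The 16 dendritic cell markers had a median log2 difference of 0.16 and the 13 tested neutrophil markers one of -0.27. Of the 16 T cell markers, 15 had an estimate above 0, with a median of 0.46, beside 54.0% of all genes tested above 0. Of the 16 fibroblast markers 15 had an estimate below 0, with a median of -0.84, beside 7887 of all 17132 genes tested below 0. An unadjusted limma p under 0.05 was reached by 9 of the 16, beside 12.2% of all genes tested. All 15 muscle markers were below 0, with a median of -1.92, but 0 had an unadjusted limma p under 0.05. For 14 of these 15 the difference between the group means was smaller than 1 pooled SD, which held for 62.1% of all genes tested. The part of these cells in the values of the listed genes was not tested.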

How the data were processed

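RNA from 7 whole tumours was sequenced from transcript 3′ ends (QuantSeq FWD, 200 ng RNA, single reads of 75 nt, per the labels' protocols), with GRCm38 per the submitters' processing notes. No source used here names the aligner, the counter, the annotation release or any use of molecular identifiers. The table deposited by the authors holds a signal per gene, which is reads divided by 1 size factor per library; all values were whole multiples of 1 read's worth (tolerance 0.01), and recovered reads were used only in edgeR and DESeq2. Of the 47643 IDs, 47224 had a symbol.

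The main test was limma's trend fit on log2(value + 1) over genes with a mean of at least 1, all 7 libraries, Benjamini-Hochberg threshold 0.05; differences are PEGPH20 minus vehicle on that scale, which understates changes of low genes. Groups came from sample titles. The script was tested on simulated data. Alternatives were edgeR, DESeq2, other scalings, pseudocount and filters, each library left out, and, added after seeing the data, 3 muscle-rich libraries left out and the pan-leukocyte level subtracted. R 4.3.3, limma 3.58.1, edgeR 4.0.16 and DESeq2 1.42.0 were used. No pair of libraries of the same group agreed within sampling noise (chi-square per degree of freedom 7.10 to 17.9). Mitochondrial reads were 11.0% to 12.3%.

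The members and lists were chosen with earlier results of these data known. Genes given in full were defining markers of each role plus members whose groups did not overlap or with an unadjusted p under 0.05; other lists give the 2 smallest p and key ligands. Overlaps and shared 75-base words at transcript ends (last 400 bases) were read from GENCODE M21 (GRCm38), and promoters from RefSeq (GRCm38.p6), where 27 of 34 members matched.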

Additional observations from a re-analysis of the deposited data

Results flagged for a closer look

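Chil3 in the PEGPH20 tumours was singled out because 1 sample lay far from the others. PEGPH20 replicate 12 read 65.5 normalised read counts, beside 4.14, 3.87 and 10.9 in PEGPH20 replicates 11, 19 and 37, and 5.23, 19.3 and 4.34 in vehicle replicates 14, 16 and 33. Its gap to the nearest PEGPH20 value was 0.885 of the whole range of that group. Mif, a cytokine gene outside the 34, was singled out in the same way: PEGPH20 replicate 19 read 401, beside 484, 485 and 493 in PEGPH20 replicates 11, 12 and 37, and 402, 354 and 328 in vehicle replicates 14, 16 and 33, a gap of 0.899 of the range of the PEGPH20 group. These were the 2 of 80 sets of 4 PEGPH20 values (tested members, other named genes and role levels) past Dixon's 95% limit, and chance passes about 1 in 20.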

How the results depend on the processing

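No listed gene was called in any of the 17 alternatives to the main limma fit. However, 8 of the 34, including Gpnmb, got no adjusted p from DESeq2, and edgeR did not test Vsig4 and Marco. At 5 CPM, 5 (Chil3, Cd163, Folr2, Vsig4 and Marco) were not tested. These genes could not be called there. Leaving out 1 library at a time gave a median log2 difference of -0.33 to 0.15 for the listed genes, -0.15 to 0.74 for the monocyte genes, -0.59 to 0.18 for the resident-like genes and -0.13 to 0.16 for the lipid-associated genes. In these fits 25 of the 33 tested genes turned sign and 8 (Pf4, Gpnmb, Msr1, Arg1, Cd14, Fcgr1, Itgam and Lyz2) kept it. The same count was not made over all genes tested. Of the genes given in full, the ranges of those that turned sign were -0.73 to 0.50 for Ly6c2, -0.48 to 0.73 for Ccr2, -2e-04 to 0.76 for Plac8, -0.39 to 1.04 for Chil3, -0.59 to 0.11 for Mrc1, -0.20 to 1.14 for Cd163, -0.84 to 0.18 for Folr2, -0.69 to 0.023 for Trem2, -0.015 to 0.29 for Apoe, -0.39 to 0.15 for C1qa, -0.28 to 0.33 for Adgre1 and -0.36 to 0.14 for Csf1r. Without the 3 muscle-rich libraries, an alternative chosen after seeing the data, the resident-like median was 0.37, and the differences were 0.52 for Ly6c2, 0.37 for Mrc1, 0.069 for Folr2, 0.28 for Trem2, 0.29 for C1qa, 0.42 for Adgre1 and 0.26 for Csf1r. Relative to the pan-leukocyte level, also added after seeing the data, Adgre1 stood at 0.038. In edgeR and DESeq2, Ccr2 had -0.22 in both, and Cd163 had -0.0055 in edgeR and -0.0172 in DESeq2. The cause was not tested. DESeq2 called 77 genes over the whole table, and limma 3 without vehicle replicate 16, none of them listed. No paired analysis was possible because the groups share no replicate number. With 4 and 3 tumours, the widest 95% interval, that of Chil3, ran from -1.53 to 2.40 log2 units. Marco, Vsig4, Cd163, Folr2 and Chil3 rest on few reads, as does Csf2 outside the list.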
